A study of Mus musculus with 4 samples.

Results

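Tumour necrosis factor (TNF) signalling was described through 10 genes, chosen by name out of 22558 gene symbols: the ligand gene Tnf, the receptor genes Tnfrsf1a, Tnfrsf1b and Tnfrsf12a, the adaptor genes Traf1, Traf2 and Traf3, the ubiquitin ligase gene Birc3 and the TNF-induced genes Tnfaip2 and Tnfaip3. Expression was measured by RNA sequencing of whole retinas from mice aged about 8 weeks, whose background mixed C57BL/6 with 129. DTA mice were Msi1-CreERT2/+; R26R-DTA/+ and control mice +/+; R26R-DTA/+, so the R26R-DTA allele was shared and only the Cre driver differed. CreERT2 is a ligand-dependent Cre recombinase, here driven from Msi1, and R26R-DTA makes diphtheria toxin fragment A, which blocks protein synthesis, in cells where Cre has acted. There were 4 libraries, 1 per group: DTA and control at day 1 after injury, and DTA and control at day 5. The sources used here do not give which retinal cells made the toxin, how Cre was induced or how many mice went into a library. The day 1 DTA table used here covers 3 of the 10 genes (Tnfaip2, Tnfaip3 and Traf3), and day 1 DTA values of the other 7 were not analysed here.

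TNF is made mainly by activated macrophages and microglia and is cleaved from the cell surface. It binds the death domain receptor encoded by Tnfrsf1a and the receptor encoded by Tnfrsf1b, which has no death domain. TRAF adaptors and the cellular inhibitor of apoptosis ligases build ubiquitin chains at the receptor and lead to NF-kappa B, which in turn drives genes such as Birc3, Traf1 and Tnfaip3. Tnfaip3 encodes a ubiquitin-editing enzyme that shuts the signal down again.

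Levels are in FPKM, which counts fragments relative to transcript length and library size and so allows genes to be compared. A difference is log2(FPKM + 1) in DTA minus that in control, and a fold is the ratio of FPKM, printed where neither value is under 1. Each group had a single library, so there is no SD and no p-value. A gene was called higher or lower by size alone: a difference of at least 1, an FPKM of at least 5 in one of the libraries compared and, for DTA against control, a difference larger than that gene's own between the 2 controls. A gene can reach 5 FPKM through the DTA library alone, and its call and rank then follow in part from its own rise. Depth was estimated from the commonest low product of FPKM and transcript length, read as 1 fragment. It was about 99.1 M (mega) fragments for day 1 DTA and 74.1 M for its control. At day 5 it was 28.9 M for DTA and 35.7 M for its control. The day 1 DTA estimate is the least firm, with 20 of 188 low genes at the commonest product.

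The starts of the genes are shown first, since several of these genes are known as NF-kappa B targets. The windows below are the 250 bases before the annotated RefSeq start, taken from the GRCm38.p6 promoter table and placed by exact match on mm9, the build of the files. They are written 5′ to 3′ in the direction of the gene, and capitals mark matches to the NF-kappa B consensus of 10 letters on either strand. Birc3, Tnfrsf12a and Tnfrsf1a are shown because they were the members called higher at day 5, and both starts of Tnfaip3 because it was the most abundant member in the 3 libraries that hold all 10.
Birc3, chr9:7873171-7873420, minus strand: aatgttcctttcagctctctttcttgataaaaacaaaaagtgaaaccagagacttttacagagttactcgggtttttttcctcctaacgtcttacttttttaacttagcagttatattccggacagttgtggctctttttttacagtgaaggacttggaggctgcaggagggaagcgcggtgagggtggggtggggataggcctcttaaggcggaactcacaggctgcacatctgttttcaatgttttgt
Tnfrsf12a, chr17:23814417-23814666, minus strand: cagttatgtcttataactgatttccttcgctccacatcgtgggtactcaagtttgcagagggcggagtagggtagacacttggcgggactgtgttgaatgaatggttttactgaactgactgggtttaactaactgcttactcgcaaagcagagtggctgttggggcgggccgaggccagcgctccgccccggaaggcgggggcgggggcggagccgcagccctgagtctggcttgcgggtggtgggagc
Tnfrsf1a, chr6:125299491-125299740, plus strand: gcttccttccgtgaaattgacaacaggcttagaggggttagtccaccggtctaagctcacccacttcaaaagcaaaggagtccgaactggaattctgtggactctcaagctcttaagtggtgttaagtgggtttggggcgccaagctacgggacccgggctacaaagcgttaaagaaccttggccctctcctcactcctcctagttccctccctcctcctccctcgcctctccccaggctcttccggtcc
Tnfaip3 upstream start, chr10:18735217-18735466, minus strand: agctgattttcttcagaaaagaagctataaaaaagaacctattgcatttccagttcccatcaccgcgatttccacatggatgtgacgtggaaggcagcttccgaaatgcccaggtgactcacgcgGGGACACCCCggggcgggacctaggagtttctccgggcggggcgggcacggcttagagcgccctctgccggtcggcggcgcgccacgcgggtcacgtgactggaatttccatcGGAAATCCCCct
Tnfaip3 downstream start, chr10:18731770-18732019, minus strand: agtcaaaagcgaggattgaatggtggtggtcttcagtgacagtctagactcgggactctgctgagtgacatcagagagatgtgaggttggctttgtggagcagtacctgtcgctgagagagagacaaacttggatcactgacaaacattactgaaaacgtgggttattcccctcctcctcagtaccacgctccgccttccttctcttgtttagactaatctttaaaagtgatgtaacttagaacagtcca

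The NF-kappa B consensus was found in 3 of the 11 windows of the 10 genes, and in 7.25% of the 32851 RefSeq promoter windows of the same length. The upstream start of Tnfaip3 held it at 2 places, from -125 to -116, where the letters match on both strands, and from -12 to -3 on the opposite strand, counted from the start. Traf3 held GGGGATTTCC from -10 to -1, and Tnfaip2 held a match on the opposite strand from -24 to -15, where the gene strand reads GGAGGGCCCC. The 3 genes called higher at day 5 held no match in these windows, nor did Tnf, Tnfrsf1b, Traf1, Traf2 or the downstream start of Tnfaip3. The AP-1 motif TGANTCA, which reads the same on both strands, was found in the upstream window of Tnfaip3, from -136 to -130, next to its first NF-kappa B match and without overlap, and in 6.75% of all windows. TATAAA, also searched on both strands, stood from -29 to -24 in Tnf and from -225 to -220 in the upstream window of Tnfaip3, and in 12.4% of all windows.

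**Figure D1:**
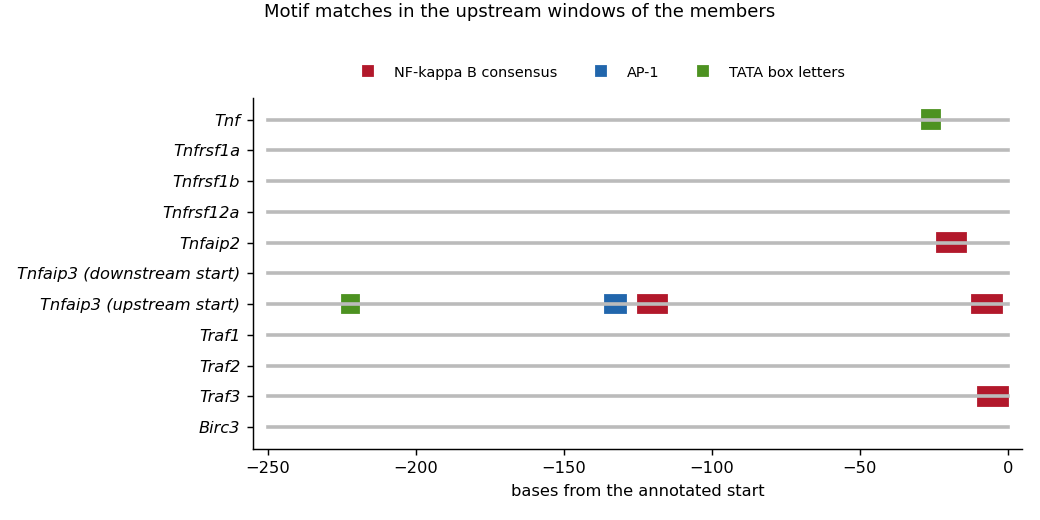
Motif matches in the 250 bases before each annotated start, with bases from the start on the horizontal axis and 1 line per window; red marks the NF-kappa B consensus, blue AP-1 and green TATAAA. Matches to the NF-kappa B consensus stand in the windows of Tnfaip2, Traf3 and the upstream start of Tnfaip3.

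At day 5, 3 of the 10 genes were called higher in DTA than in control: Tnfrsf12a, Tnfrsf1a and Birc3. For comparison, 6.74% of the 9895 genes at 5 FPKM or more in one library were called higher (2.96% of all 22541 genes with a value), and 6.00% of the 9627 at that level other than small RNA genes. None of the 10 was called lower, where 1.77% of genes at that level were, 1.38% without small RNA genes. The members were chosen with earlier results of these data known, so these shares and the medians below do not test the set. Tnfaip2 differed by about as much as these but lay under 5 FPKM, Tnf reached 0.553 FPKM in day 5 DTA and was at 0 or near it in the controls, and Tnfaip3, the most abundant member in that library, lay lower in day 5 DTA without passing the size rule. In bulk tissue, fewer cells of a type and less RNA per cell cannot be told apart, and 10 of 15 microglia and macrophage markers were called higher in the same comparison; their part in the members' values was not tested. The median difference of the 10 members was 0.69, against 0.06 over all genes and 0.26 over genes at 5 FPKM or more. Scaling the libraries by their median ratio changed the day 5 ratio of DTA to control by -0.25 on the log2 scale, less in low genes once 1 is added. It left the same 3 genes called, with differences of 2.33 for Tnfrsf12a, 1.24 for Tnfrsf1a and 2.44 for Birc3.

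**Figure D2:**
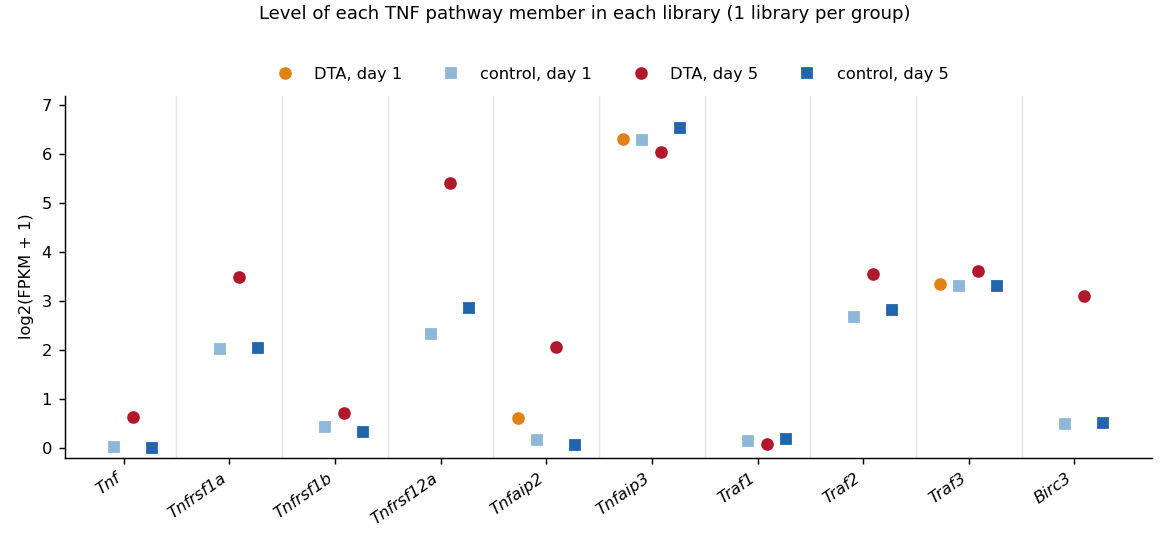
Level of each member as log2(FPKM + 1) in each library, with circles for DTA and squares for control, light colours for day 1 and dark colours for day 5. The day 5 DTA library lies above both controls for Tnfrsf12a, Birc3, Tnfaip2 and Tnfrsf1a, by less for Traf2, Tnf, Tnfrsf1b and Traf3, and below them for Tnfaip3 and Traf1.

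Tnf (chromosome 17, 35336336 to 35338941) encodes the ligand. It was listed at 0.553 FPKM in day 5 DTA, at 0 in the day 5 control and at 0.00859 FPKM in the day 1 control. On its longest annotated transcript of 1639 bases this is about 26.2 fragments for day 5 DTA, against 1.04 for the day 1 control, and a count of 0 in the day 5 control allows up to 0.0513 FPKM (3 fragments; counting error only). The DTA value stood above both controls, and its difference of 0.64 was under the size rule and the floor. The size of this difference is set by the pseudocount, with 2.71 at a pseudocount of 0.1 and 0.15 at a pseudocount of 5.

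Among the receptors, Tnfrsf12a differed most. Tnfrsf12a (chromosome 17, 23812412 to 23814416) encodes Fn14, the receptor for the TNF-like ligand TWEAK, the product of Tnfsf12. It stood at 41.5 FPKM in day 5 DTA, against 6.21 FPKM in the day 5 control and 3.98 FPKM in the day 1 control. The DTA library was well above both controls, 6.68-fold over that of the same day, with a difference of 2.56. The controls themselves differed by 0.53 (day 5 minus day 1), the largest such difference among the members. Of 9627 genes at 5 FPKM or more other than small RNA genes, 66 had a larger day 5 difference. Its 3′ end overlaps Hcfc1r1, transcribed from the opposite strand, by 78 bases, and Hcfc1r1 stood at 34.2 FPKM in day 5 DTA, against 29.3 (day 5) and 27.3 FPKM (day 1) in the controls, so its level varied far less than that of Tnfrsf12a. Its ligand gene Tnfsf12 stood at 59.7 FPKM in DTA at day 5, against 62.3 FPKM in control, a difference of -0.06.

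Tnfrsf1a, the death domain receptor of TNF (chromosome 6, 125299741 to 125312501), stood at 10.3 FPKM in day 5 DTA, against 3.12 (day 5) and 3.05 FPKM (day 1) in the controls. The controls were nearly alike and DTA was 3.29-fold over that of day 5, a difference of 1.45 that 245 of the 9627 genes exceeded. Tnfrsf1a reached 5 FPKM in day 5 DTA only, so it entered this ranking through its own rise. With a pseudocount of 5 the difference was 0.91 and the call ended. Tnfrsf1b, the receptor without a death domain (chromosome 4, 144802271 to 144836773), stood at 0.630 FPKM in day 5 DTA, against 0.248 (day 5) and 0.337 FPKM (day 1) in the controls. It was higher in DTA than in either control, by 0.39 against that of day 5 (1.07 with a pseudocount of 0.1 and 0.10 with a pseudocount of 5), but stayed under 1 FPKM in the 3 libraries.

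The adaptors were less uneven. Traf2, the ubiquitin ligase family adaptor that binds both TNF receptor complexes (chromosome 2, 25373502 to 25402414), stood at 10.7 FPKM in day 5 DTA, against 6.04 (day 5) and 5.37 FPKM (day 1) in the controls, a difference of 0.74 at 1.77-fold. Traf3, which holds the kinase NIK at a low level in resting cells (chromosome 12, 112404759 to 112505359), stood at 11.3 FPKM in DTA at day 5, against 8.90 FPKM in control. At day 1 it stood at 9.25 FPKM in DTA and 8.84 in control. Its differences of 0.31 at day 5 and 0.06 at day 1 were close to the medians of 0.26 and 0.05 over all genes at 5 FPKM or more. Traf2 shares 240 bases with the pseudogene Gm13433 on the other strand, and Traf3 shares 18122 bases of its locus with a gene model on the other strand. The sources used here do not say whether counting used strand.

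Traf1, which has no RING domain and is itself an NF-kappa B target (chromosome 2, 34798778 to 34817292), was barely detected. It stood at 0.0590 FPKM in day 5 DTA, against 0.132 (day 5) and 0.0974 FPKM (day 1) in the controls, about 5.81, 16.1 and 24.6 fragments. DTA was the lowest of the 3, with a difference of -0.10, and its authors' bounds (0.0135 to 0.108) overlapped those of the day 5 control (0.0659 to 0.209). A difference in Traf1 was not detectable at this depth.

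Birc3, a cellular inhibitor of apoptosis and ubiquitin ligase recruited by TRAF proteins (chromosome 9, 7848701 to 7873170), stood at 7.63 FPKM in day 5 DTA, against 0.430 (day 5) and 0.396 FPKM (day 1) in the controls. The controls were nearly alike, at about 44.6 and 85.4 fragments, and DTA was far above both at about 641 fragments. The difference of 2.59 was the largest of the 10 at the settings used, and 60 of the 9627 genes exceeded it. Birc3 reached 5 FPKM in day 5 DTA only, so it entered this ranking through its own rise. With a pseudocount of 0.1 Tnfaip2 differed more (4.58). Tnfrsf12a differed more with a pseudocount of 5 (2.05), against the day 1 control (3.09) and against the mean of both controls (2.80). With a floor of 10 FPKM the call ended, since no library reached it, and the size of the difference moved between 1.22 with a pseudocount of 5 and 3.86 with a pseudocount of 0.1. Its neighbour in function, Birc2, stood at 17.1 FPKM in DTA at day 5, against 13.9 FPKM in control, a difference of 0.29.

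**Figure D3:**
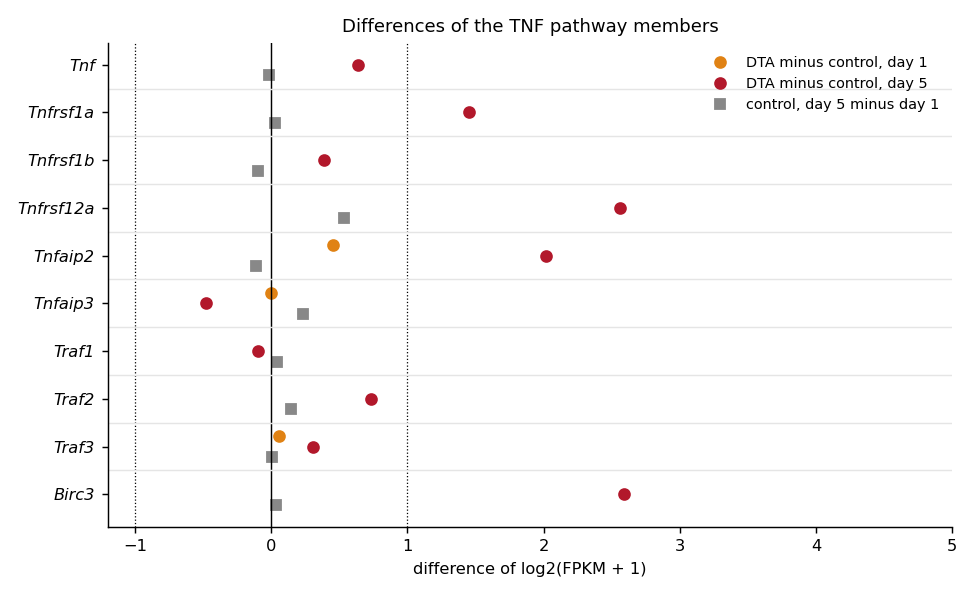
Difference of log2(FPKM + 1) for each member: DTA minus control at day 1 (orange circles, 3 genes) and at day 5 (red circles), and control day 5 minus control day 1 (grey squares); dotted lines mark a difference of 1 in size. Birc3, Tnfrsf12a, Tnfaip2 and Tnfrsf1a lie past 1 at day 5, and the controls differ by 0.53 or less for each gene.

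The TNF-induced genes differed in opposite directions at day 5. Tnfaip2, first found as a TNF-induced transcript of human endothelial cells (chromosome 12, 112680872 to 112693229), stood at 0.532 FPKM in DTA at day 1, against 0.119 FPKM in control, about 205 and 34.4 fragments. At day 5 it stood at 3.20 FPKM in DTA and 0.0379 in control, about 360 and 5.25 fragments. Both DTA libraries lay above both controls, with differences of 0.45 at day 1 and 2.02 at day 5, and the difference between the controls was -0.11. It was called at day 5 only when no floor was set, and the size of its differences moved with the pseudocount: 4.58 at day 5 and 1.53 at day 1 with a pseudocount of 0.1, and 0.70 at day 5 and 0.11 at day 1 with a pseudocount of 5. The difference at day 5 exceeded that at day 1 by 1.56, and with 1 library per group this was not tested.

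Tnfaip3 (chromosome 10, 18720717 to 18735216) stood at 78.1 FPKM in DTA at day 1, against 77.9 FPKM in control, and at 65.5 FPKM in DTA at day 5, against 91.6 FPKM in control. It was the most abundant of the 10 genes in the 3 libraries that hold all of them, and of the 3 measured in day 1 DTA. Its level was above 96.6% of all genes in day 5 DTA and 98.1% in its control. The pairs at day 1 were nearly equal, with a difference of 0.00344, while at day 5 DTA was the lowest of the 4 libraries, with a difference of -0.48 against the day 5 control and -0.25 against the day 1 control. The controls differed by 0.23. Of the 9627 genes, 9172 had a larger day 5 difference, and after median ratio scaling the value was -0.72, still under the size rule. The file gives 2 start sites for this gene and 1 FPKM over both, so the share of each start shown above is not known.

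**Figure D4:**
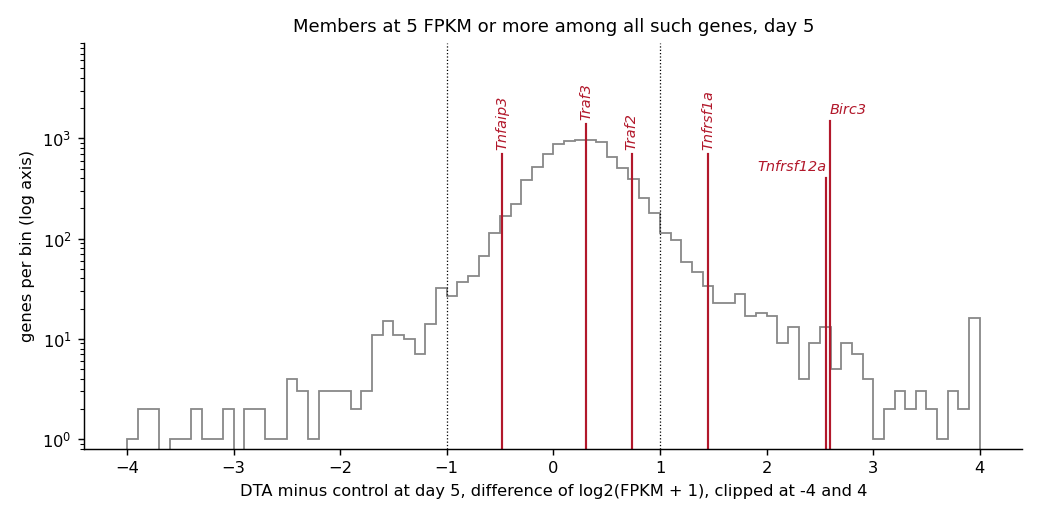
Distribution of the day 5 difference (DTA minus control, log2(FPKM + 1)) over the 9627 genes at 5 FPKM or more other than small RNA genes, in bins on the horizontal axis with the number of genes on a log axis; red lines mark the 6 members at that level. Tnfrsf1a, Tnfrsf12a and Birc3 lie past 1, Traf2 and Traf3 within the body of the distribution and Tnfaip3 in its lower tail.

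The authors' bounds cover 1 library and no spread between mice. At day 5 they overlapped between DTA and control for Traf1 and were apart for the other members. Traf3 was among those apart, though its difference was close to the median over genes at 5 FPKM or more. The share of all genes with bounds apart was not worked out, so this is not a result about the members. At day 1 the bounds were apart for Tnfaip2 and overlapped for Tnfaip3 and Traf3. For Tnfaip3 in day 1 DTA the lower bound, 78.07 FPKM, lay above the value itself, 78.06 FPKM. At day 1 none of the 3 genes was called, where 2.67% of 2623 genes at 5 FPKM or more were called in either direction, 1.70% without small RNA genes. Between the controls none of the 10 was called, where 2.57% of 9321 genes were, 0.884% without small RNA genes. From day 1 to day 5 in DTA, Tnfaip2 differed by 1.45, Traf3 by 0.26 and Tnfaip3 by -0.25 (day 5 minus day 1), none was called, and 6.20% of 2728 genes were, 4.03% without small RNA genes.

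The other genes of the pathway were taken from 7 lists. These were chosen with earlier results of these data known, so the counts below do not test them. Of 91 measured at day 5, 10 were called higher in DTA and none lower, with a median of 0.22, against the 2.96% of all genes with a value called higher. The median over all genes was 0.06, and 0.26 over genes at 5 FPKM or more. Of the 91, 45 reached 5 FPKM, where 6.74% of all genes at that level were called higher. These 45 were 2 ligand genes, 5 receptor genes, 8 TRAF adaptors and partners and 13 genes of the receptor complexes. The rest were 12 feedback inhibitors, 1 other Tnfaip gene and 4 genes of shedding. Of 26 measured at day 1, 1 was called higher, against 0.933% of all genes with a value. None of the 91 was called higher between the controls and 1 was called lower, where 0.710% of all genes with a value were. With a pseudocount of 5 the calls of Tnfsf13, Ltbr, Ripk1, Tnip2 and Rhbdf1 ended and 5 were left, and with a floor of 10 FPKM those of Ltbr, Fas, Ripk1, Nfkbie and Rhbdf1 ended and 5 were left.

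Ligands were mostly low. Of 17 ligand genes 1 was called higher (median 0.10): Tnfsf13, which encodes the B cell factor APRIL, at 33.7 FPKM in DTA at day 5, against 16.1 FPKM in control. Its difference of 1.03 was no longer past the size rule under both scalings, against the day 1 control or against the mean of both controls. The Tnfsf13 locus shares 2939 bases with the gene model BC096441 on the same strand. It shares as many with the non-coding gene model 2010012P19Rik on the other strand. Ltb, lymphotoxin beta, stood at 3.05 FPKM in DTA at day 5, against 0.0572 FPKM in control, a difference of 1.94 under the floor. Tnfsf18 stood at 1.03 FPKM in day 5 DTA and was listed at 0 in both controls, and Tnfsf9 differed by 0.18.

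Of 23 other receptor genes 2 were called higher (median 0.14). Fas, a death receptor, stood at 6.93 FPKM in DTA at day 5, against 0.477 FPKM in control, a difference of 2.43. Ltbr, the lymphotoxin beta receptor, stood at 8.26 FPKM in DTA at day 5, against 2.42 FPKM in control, 3.42-fold. Among those not called, Eda2r stood at 1.09 FPKM in DTA at day 5, against 0 in control, Tnfrsf10b differed by 0.88 and Tnfrsf8 by -0.71.

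Of 10 TRAF adaptors and partners 1 was called, and it was called on both days. Map3k14 encodes NIK, the kinase of the alternative NF-kappa B route that Traf2, Traf3 and the inhibitor of apoptosis ligases keep low. It stood at 17.2 FPKM in DTA at day 1, against 4.69 FPKM in control, 3.67-fold, and at 15.8 FPKM in DTA at day 5, against 4.33 FPKM in control, 3.64-fold. The differences were 1.68 and 1.65, and both DTA libraries lay above both controls. The call held under each of the 9 alternatives tried on each day. Map3k14 shares 2613 bases with a non-coding gene model on the same strand. Traf3ip1 differed by 0.74 at day 5, Tank by 0.74 and Trafd1 by -0.61.

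Of 18 genes of the receptor complexes 1 was called higher (median 0.29): Ripk1, the kinase that couples the receptor to survival or death. It stood at 3.39 FPKM in DTA at day 1, against 1.55 FPKM in control, and at 6.66 FPKM in DTA at day 5, against 1.62 FPKM in control, with differences of 0.78 and 1.55. Ripk1 shares 2108 bases with the non-coding gene model Gm17084 on the same strand, and on the other strand 1366 bases with the pseudogene Gm17083 and 432 bases with Serpinb6a, which differed by 0.80 at day 5. Rnf31, a subunit of the linear ubiquitin ligase, differed by 0.79 and shares 123 bases with Irf9 on the same strand, which differed by 2.42. Tab1 differed by 0.75 and Casp8 by 0.69.

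Of 13 feedback inhibitors 4 were called higher (median 0.49). Nfkbie and Nfkbia, which encode inhibitors that hold NF-kappa B in the cytoplasm, differed by 2.25 and 1.28. Zfp36, which encodes a protein that destabilises Tnf mRNA, stood at 15.7 FPKM in DTA at day 5, against 3.09 FPKM in control, 5.09-fold. Tnip2, which encodes a partner of the Tnfaip3 protein, stood at 23.4 FPKM in DTA at day 5, against 10.1 FPKM in control, a difference of 1.14 whose call ended under both scalings and against the day 1 control. Nfkbia stood at 21.6 FPKM in DTA at day 1, against 14.3 FPKM in control, a difference of 0.57. Optn, a ubiquitin-binding autophagy receptor, stood at 24.5 FPKM in DTA at day 5, against 49.3 FPKM in control; its difference of -0.98 was just short of 1. Tax1bp1 differed by 0.71 and Fam105b, the linear ubiquitin protease, by 0.50.

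None of 6 other genes with Tnfaip names was called, and only 1 of them, Tnfaip1, reached 5 FPKM, so the rest could not be called. Tnfaip6 stood at 2.63 FPKM in DTA at day 5, against 0.588 FPKM in control, a difference of 1.19 under the floor, Tnfaip8l2 differed by 0.40 and Tnfaip8 by 0.34. Of 4 genes of TNF shedding, Rhbdf1, an inactive rhomboid that regulates the sheddase, was called higher, with 5.66 FPKM in day 5 DTA, 3.15-fold over control. Adam17, the sheddase itself, stood at 6.28 FPKM in DTA at day 5, against 5.25 FPKM in control, Rhbdf2 differed by 0.64, and Timp3, an inhibitor of the sheddase, by 0.14. Timp3 was the gene called lower between the controls (-1.07). Adam17, Timp3, Optn, Tnfaip8 and Tnfsf9 overlap gene models on the other strand, so the source of some of their fragments is uncertain.

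**Figure D5:**
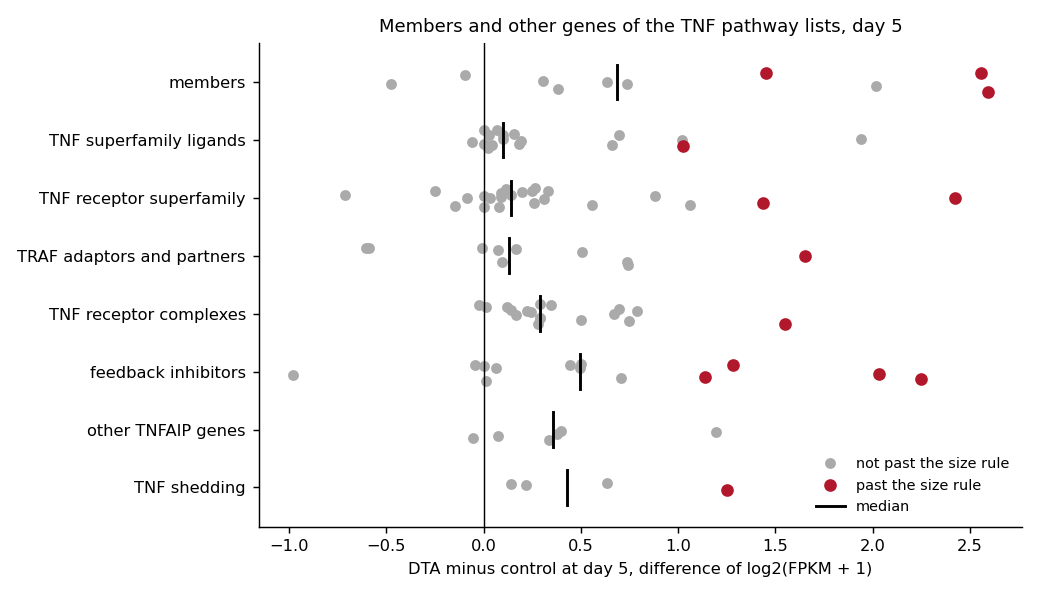
Day 5 difference (DTA minus control, log2(FPKM + 1), horizontal axis) of each member and of the other genes in the 7 pathway lists, with red points for genes past the size rule, grey points for the rest and a black bar for the median of each list. All genes past the rule lie on the positive side, 3 of the members and 10 of the others, and the feedback inhibitors hold 4 of them.

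Markers of several cell types differed as well. Of 15 microglia and macrophage markers 10 were called higher at day 5, and their summed level was 175 FPKM in day 5 DTA, against 23.6 (day 5) and 24.5 FPKM (day 1) in the controls. Over the 4 of these markers in the day 1 DTA table the sum was 4.24 FPKM in DTA and 3.15 in control. None of them reached 5 FPKM at day 1, so none could be called. Of 9 rod markers 4 were called lower, and their sum was 3795 FPKM in day 5 DTA, against 11362 (day 5) and 8869 FPKM (day 1) in the controls, the highest sums of the 7 marker lists. None of 9 lymphocyte and neutrophil markers reached 5 FPKM at day 5, so none could be called. Their sums were 0.564, 0.174 and 0.197 FPKM in the same order, and the T cell genes Cd3e and Cd3g were at 0 in all 3 libraries. None of 8 endothelial and pericyte markers was called, of which 3 reached 5 FPKM at day 5, with sums of 54.4, 49.5 and 50.0. Of 10 Mueller glia markers 1 was called higher and 2 lower, with sums of 1235, 1902 and 2348. Over the 3 of these in the day 1 DTA table the sum was 575 FPKM in DTA and 1069 in control. Of these 3, Sox9 was called higher at day 1 (1.05). Over 2 rod markers the day 1 sum was 1724 FPKM in DTA and 1416 in control. Over 2 endothelial and pericyte markers it was 8.22 FPKM in DTA and 4.44 in control. The part of these lists in the members' differences was likewise not tested.

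Lens and pigment epithelium transcripts, from tissues beside the retina, varied between libraries. Of 14 lens markers 7 were called lower at day 5, with sums of 18.1 FPKM in day 5 DTA, against 308 (day 5) and 2234 FPKM (day 1) in the controls, and 13 were lower between the controls. None of 9 pigment epithelium markers was called at day 5, with sums of 19.1, 42.7 and 165 FPKM in the same order, and 4 were lower between the controls. Rgr and Ttr, the 2 of these at 5 FPKM or more at day 5, differed by -1.22 and -1.04, less in size than between the controls. Over the 6 lens markers in the day 1 DTA table the sum was 1760 FPKM in DTA and 891 in control. Over the 2 pigment epithelium markers in it the sum was 30.9 FPKM in DTA and 52.6 in control. None of these was called at day 1, but Cryga, Crygb, Crygc and Crygd differed by 2.14, 1.26, 1.11 and 1.29. These genes were not called because each differed more between the controls. Cryba1 and Mip differed by -0.05 and -0.01. The part of lens and pigment epithelium transcripts in the members' values was not tested. Against the day 1 control the 3 called members kept their calls, with differences of 1.48 for Tnfrsf1a, 3.09 for Tnfrsf12a and 2.63 for Birc3. That control held still more lens and pigment epithelium transcripts than the day 5 control, so this does not test their part.

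Genes with the most similar profiles were found for the 3 called members, as the smallest Euclidean distance between centred log2(FPKM + 1) profiles over 3 libraries (the controls and day 5 DTA) among 9783 genes. Nearest to Tnfrsf1a were Mobkl2c (distance 0.04), Psmb10, an immunoproteasome subunit (0.04), and Cfb, complement factor B (0.04). Nearest to Tnfrsf12a were Cd68, a lysosomal protein of phagocytes (0.16), Lad1 (0.17) and Irf9, a transcription factor of interferon signalling (0.24). Nearest to Birc3 were Madcam1, an adhesion molecule (0.03), Mt2, a metallothionein (0.04), and Gbp5, an interferon-induced GTPase (0.06). With 3 libraries these distances reflect little more than the size of the day 5 difference and the gap between the controls.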

How the data were processed

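Per the labels' protocols, Sepazol was used to extract RNA from whole retinas and an Illumina mRNA-seq preparation kit to build the libraries. Cufflinks 2.1.1, CASAVA 1.8.2, bcl2fastq 1.8.4 and the build mm9 are named, without a role, in the submitters' processing notes, and the aligner and annotation are not given there. The authors deposited FPKM per gene with lower and upper bounds and a status, per the file headers. FPKM depend on the whole library, so a shift in abundant rod transcripts moves all other genes. FAIL and HIDATA lines were read as missing (none was a member), and the loci of a symbol were summed. The day 1 DTA table covers 5799 of 22558 symbols and was used as deposited. To estimate depth, FPKM was multiplied by length in genes with 1 transcript over 1500 bases, and the commonest low product was read as 1 fragment; the fragment numbers use a gene's longest GENCODE transcript and are approximate. File starts had 1 added.

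Members, lists and rules were chosen with earlier results of these data known. All members were named; from the lists, each called gene and up to 3 others with the largest day 5 difference at 1 FPKM or more in one library; and the 3 nearest profiles per called member. Alternatives changed the pseudocount, the floor, the scaling and the control. The call rule was tested on simulated data. Python 3.11.15, pandas 2.3.3 and numpy 2.4.6 were used.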

Additional observations from a re-analysis of the deposited data

Results flagged for a closer look

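Some DTA minus control differences had opposite signs on the 2 days. That of Tnfaip3 was -0.48 at day 5 and 0.00344 at day 1, where the pair was nearly equal and the sign turned under both scalings and with the other control, so day 1 gave no direction. Rhbdf2 differed by 0.64 at day 5 and by -0.10 at day 1, and Adam17 by 0.22 at day 5 and by -0.31 at day 1. With 1 library per group these differences between the days were not tested.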

How the results depend on the processing

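No replicate block was fitted, since each group has 1 library and the labels carry no replicate numbers; a fit over both days with day as the block, which could hold only genes with all 4 values, was not run. The day 5 count of 3 members called higher lay between 2 and 4 over 9 alternatives, and no called member changed sign. Tnfrsf1a lost its call with a pseudocount of 5 (0.91) and Birc3 with a floor of 10 FPKM; Tnfaip2 gained one with no floor (2.02). The 10 other pathway genes called higher at day 5 became 5 with a pseudocount of 5 and 5 with a floor of 10 FPKM, and 14 with no floor. None of the 91 was called lower at day 5, and 1, Optn, was with a pseudocount of 0.1, under both scalings, against the day 1 control and against the mean of both controls. At day 1 the 1 pathway gene called higher became 2, with Timp3, against the day 5 control. The day 1 difference of Tnfaip3 changed sign in 4 of 9 alternatives (lowest -0.23). The cause was not tested. Depth limits Traf1, the control values of Tnf and the day 5 control value of Tnfaip2, which rest on few fragments.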
